A study of Mus musculus with 4 samples.

Results

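The genes described here encode the BCL2 family, whose members decide at the mitochondrion whether a cell lives or dies. They were chosen by name, as the probe sets whose annotated symbol is Bcl2, Bcl2l1, Mcl1, Bax, Bak1, Bcl2l11, Bid, Bbc3, Pmaip1 or Bad. Of these 10 genes, 9 were measured, each by 1 probe set, among 19505 genes in all, and Bax was not analysed here. RNA from mouse T cells cultured under a Tc9 cytokine condition (2 arrays) or a Tc1 cytokine condition (2 arrays) was labelled with biotin and hybridised to Affymetrix arrays, to compare expression between the cell types. Tc9 is the field's name for interleukin 9 producing CD8 T cells, and Tc1 for the cytotoxic kind that secretes interferon gamma. The sources used here give no mouse strain, age, cytokine, culture time or purification of the cells. The labels number the arrays 1 and 2 within each group and do not say whether these came from separate cultures or animals, so p-values measure only the spread between these samples, which may be technical.

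In the mitochondrial pathway of apoptosis, Bax and Bak1 encode the effectors that make pores in the outer mitochondrial membrane, and cytochrome c leaves through them to start the caspases. Bcl2, Bcl2l1 (BCL-XL) and Mcl1 encode the survival proteins that hold the effectors in check. Bcl2l11 (BIM), Bid, Bbc3 (PUMA), Pmaip1 (NOXA) and Bad encode BH3-only proteins, which bind the survival proteins or the effectors and so promote death. In T cells, cytokine signals through STAT5 are known to sustain Bcl2, BIM is known for the death of activated T cells at the end of a response, and FOXO factors are known to drive Bcl2l11 and Bbc3 when growth factor signalling is low.

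The DNA around annotated starts is shown for Bcl2, Bcl2l11 and Bid, the members with the smallest p-values below, and for Bbc3, because its window and that of Bcl2l11 hold the letters of a FOXO site. Windows of 300 bases, 250 before to 50 after a start, were taken from RefSeq on GRCm38.p6 and are written 5′ to 3′ on the gene's strand. They lie at chr1:106714241-106714540 (minus strand) for Bcl2, chr2:128125788-128126087 (plus) for the first of 2 Bcl2l11 starts, chr6:120916775-120917074 (minus) for Bid, and chr7:16310011-16310310 (plus) for the second of 3 Bbc3 starts. Capitals mark the FOXO core TGTTTAC and the GC box GGGCGG, each searched on both strands.
Bcl2: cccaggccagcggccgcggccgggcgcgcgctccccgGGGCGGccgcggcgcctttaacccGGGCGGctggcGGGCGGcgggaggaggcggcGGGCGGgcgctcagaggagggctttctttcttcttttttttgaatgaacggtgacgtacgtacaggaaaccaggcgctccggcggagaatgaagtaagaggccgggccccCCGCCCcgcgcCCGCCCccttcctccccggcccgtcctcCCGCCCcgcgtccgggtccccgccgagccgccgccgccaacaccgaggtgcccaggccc
Bcl2l11: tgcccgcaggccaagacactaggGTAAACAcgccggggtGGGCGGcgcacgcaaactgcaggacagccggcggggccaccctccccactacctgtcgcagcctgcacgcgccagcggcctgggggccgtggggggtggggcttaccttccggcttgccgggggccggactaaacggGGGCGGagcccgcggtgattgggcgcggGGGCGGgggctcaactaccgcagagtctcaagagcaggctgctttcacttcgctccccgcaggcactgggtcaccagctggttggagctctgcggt
Bid: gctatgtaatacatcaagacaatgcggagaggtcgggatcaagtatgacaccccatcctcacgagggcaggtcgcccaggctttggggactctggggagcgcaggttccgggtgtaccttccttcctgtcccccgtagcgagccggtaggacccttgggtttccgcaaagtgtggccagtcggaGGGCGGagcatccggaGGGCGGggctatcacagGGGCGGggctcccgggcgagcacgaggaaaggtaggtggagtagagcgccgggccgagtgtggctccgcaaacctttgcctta
Bbc3: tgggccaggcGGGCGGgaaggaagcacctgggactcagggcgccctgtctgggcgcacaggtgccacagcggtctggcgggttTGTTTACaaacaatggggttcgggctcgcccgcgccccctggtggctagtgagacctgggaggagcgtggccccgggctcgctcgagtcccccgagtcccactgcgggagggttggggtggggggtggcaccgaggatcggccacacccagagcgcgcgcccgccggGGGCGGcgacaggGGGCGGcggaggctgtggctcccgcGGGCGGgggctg
Among 32851 such windows of all genes, 3.65% held TGTTTAC on either strand. The windows printed hold it at -227 from the start of Bcl2l11 and at -167 from that start of Bbc3, counted to the leftmost base of the match. No other searched window of the members held these letters, in 14 windows of 8 genes, which do not include Pmaip1. The GC box, found in 35.7% of all windows, occurs 7 times in the Bcl2 window, 3 times in that of Bcl2l11 and 3 times in that of Bid. The STAT palindrome TTCNNNGAA (8.30% of all windows) and the E2F site TTTGGCGC (0.514%) had no match in the 14 windows, and the E box CACGTG (7.15%) had 1, in the third Bbc3 window. None of these motif texts contains another. The Bcl2 window was 76.0% G and C, that of Bcl2l11 71.0% and that of Bid 63.3%, against a median of 52.7% over all windows. These matches describe the letters of the windows and are no evidence that a factor binds there.

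The arrays formed pairs by number. The median deposited intensity was 37.9 (Tc9) and 37.1 (Tc1) on the arrays numbered 1 and 57.1 (Tc9) and 57.3 (Tc1) on those numbered 2, and the deposited values were written with a median of 10 and 7 digits. Intensities were therefore quantile normalized over the 4 arrays, and each change is also given within each number and with the number as a block in the fit. In normalized log2 values, correlations across genes were 0.985 between the Tc9 arrays and 0.987 between the Tc1 arrays. They were 0.987 between the arrays numbered 1 and 0.990 between those numbered 2, and genes are not independent replicates. The pairing by number thus remained after normalization, and the fit without a block counts it as spread. CD8 T cell markers were bright, with all 5 measured (Cd8a, Cd8b1, Cd3d, Cd3e and Cd3g) above the background limit on every array (the 95th percentile of the array's 5222 negative control probe sets, used as such throughout) and summed intensities of 18338 and 18969 in Tc9 and 17235 and 18139 in Tc1. None of the 5 passed limma without a block, and 4 passed with it: Cd3d (log2 change 0.54, with the block adjusted p = 8.86e-14), Cd3g (0.25) and Cd3e (0.18) were higher in Tc9 and Cd8b1 (-0.28) lower. Of 19 measured markers of CD4 T, B, myeloid, NK, gamma-delta T and mast cells, 18 lay below the background limit on all 4 arrays. The other, the B cell gene Cd79b, passed it on 1 Tc9 array. None of the 19 passed limma without a block, and Cd79b (log2 change 0.47) and the myeloid gene Csf1r (0.44) passed with it. The 19 summed to 856 and 855 in Tc9 and 792 and 778 in Tc1, and the part of these marker differences in the results was not tested.

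The log2 changes of the 9 measured BCL2 family members between Tc9 and Tc1 cells lay between -0.57 and 0.55. The Tc9 arrays carried 1.46-fold the Bcl2l11 signal and 1.31-fold the Bcl2 signal of Tc1, so a death gene and a survival gene were both higher, while they carried 0.672 times the Bid signal. Folds and log2 changes are on the log2(normalized intensity + 16) scale, as Tc9 minus Tc1, which understates the change of dim genes. In limma's test without a block, 0 of the 9 members passed an adjusted p of 0.05, where 0.574% of all genes did (112 genes, 77 higher and 35 lower; 16 genes, 13 and 3, with the values as deposited). At an unadjusted p under 0.05 there were 3 members, Bcl2l11, Bid and Bcl2, against 5.34% of all genes and 9.65% of the 6354 genes above the background limit on every array. With the replicate number as a block, 5 members passed, Bcl2, Bcl2l1 and Bcl2l11 higher (6.40% of all genes) and Bid and Bak1 lower (7.56%), where in either direction 14.0% of all genes and 29.6% of the 6354 brighter genes did. The block left 1 residual degree of freedom and an infinite prior, so that genes of similar brightness shared the same spread. A p-value with the block therefore does not measure how well a gene's own change repeated, and very small ones overstate the evidence. Bcl2 had a smaller adjusted p with the block (5.56e-12) than Bcl2l11 (9.06e-09), although its log2 change was smaller (0.38 against 0.55). The SE and intervals printed with the changes come from the fit without the block. The median log2 change of the 9 members was 0.01, against -0.0030 for all genes. That median is the value of Pmaip1, which lay under the background limit on all 4 arrays. In these bulk samples, fewer cells of a type and less RNA per cell cannot be told apart.

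**Figure D1:**
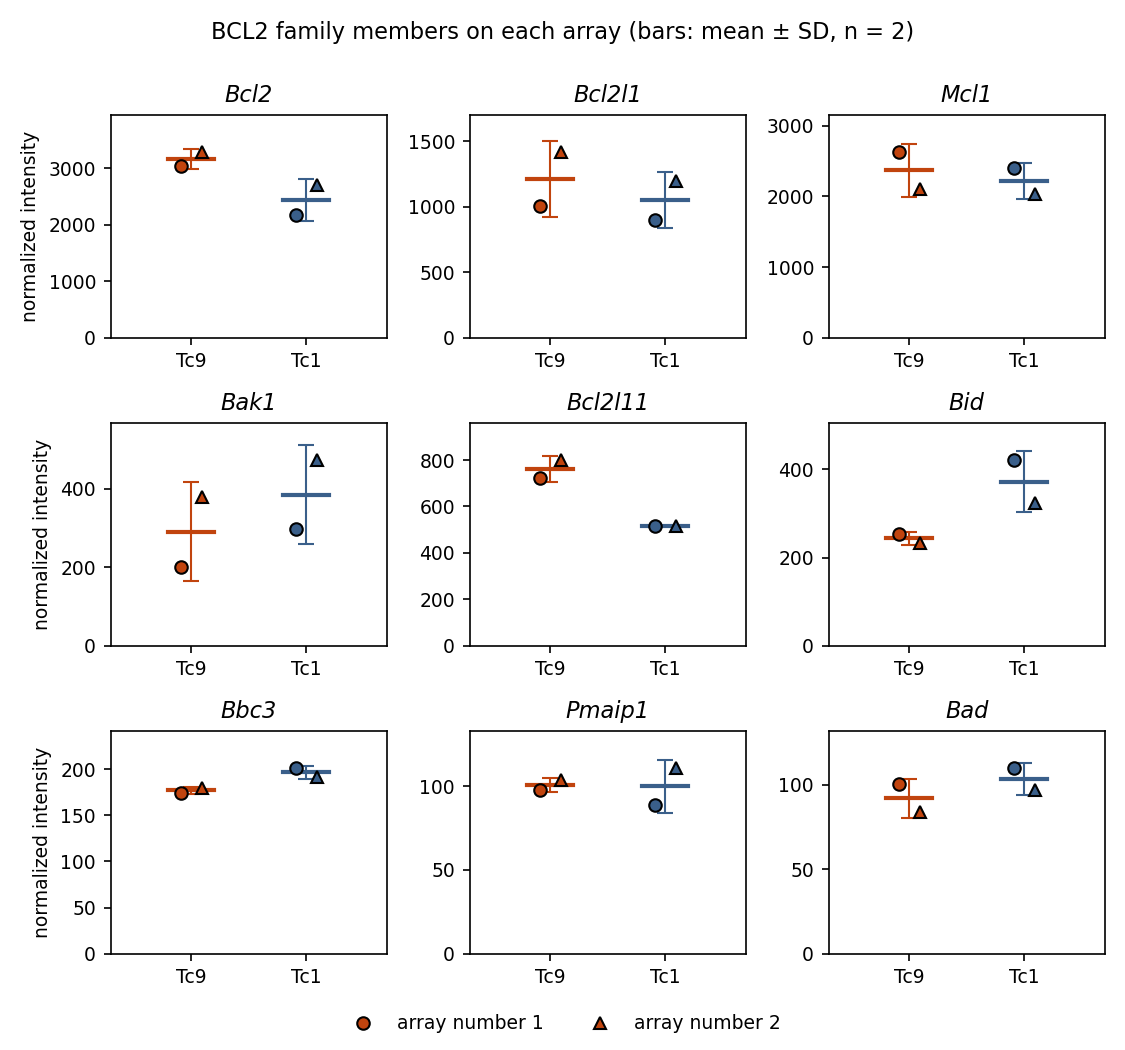
Normalized intensity of each measured member (y axis, linear, from 0, its own scale in each panel) on the 2 Tc9 and the 2 Tc1 arrays, with circles for arrays numbered 1, triangles for those numbered 2, and bars for the mean ± SD (n = 2). Both Tc9 points lie above both Tc1 points for Bcl2 and Bcl2l11 and below them for Bid and Bbc3, and the groups overlap for the other 5.

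Among the survival genes, Bcl2 had normalized intensities of 3043 and 3298 on the Tc9 arrays numbered 1 and 2, against 2174 and 2699 on the Tc1 arrays. Both Tc9 values lay above both Tc1 values, and the lower Tc9 value was closer to the higher Tc1 value than the Tc1 values were to each other. The log2 change was 0.38 ± 0.14 (SE; 95% interval 0.05 to 0.72; 0.48 and 0.29 within numbers 1 and 2), with limma adjusted p = 0.742 and, with the block, 5.56e-12. It was 0.23 without the Tc1 array numbered 1. Bcl2l1, whose BCL-XL protein shields mitochondria of activated lymphocytes, measured 1009 and 1422 in Tc9, against 901 and 1201 in Tc1. Its groups overlapped, because both arrays numbered 2 were higher than both numbered 1. Its log2 change was 0.20 ± 0.21 (0.16 and 0.24 within the numbers; limma adjusted p = 1.000, with the block 0.0338), and it was -0.043 without the Tc9 array numbered 2 and -0.0032 without the Tc1 array numbered 1. Mcl1, which encodes a short-lived survival protein, measured 2634 and 2106 in Tc9, against 2405 and 2041 in Tc1. The groups overlapped, and the arrays numbered 1 were the higher ones in both. The log2 change of Mcl1 was 0.09 ± 0.16 (95% interval -0.28 to 0.45; limma adjusted p = 1.000, with the block 0.373), and without the Tc9 array numbered 1 or the Tc1 array numbered 2 it was -0.072 and -0.030. Within numbers 1 and 2 the Mcl1 change was 0.13 and 0.045, and the 95% interval leaves room for a change of either sign.

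Bak1, the effector measured here, had intensities of 201 and 379 in Tc9, against 296 and 474 in Tc1. Within each number the Tc9 array was the lower one, while the groups overlapped, since both arrays numbered 2 exceeded their counterparts numbered 1 by 0.87 (Tc9) and 0.65 (Tc1) on the log2 scale. This gap between numbers was larger than the log2 change between groups, -0.42 ± 0.33 (-0.53 and -0.31 within the numbers; limma adjusted p = 1.000, with the block 0.00178). Leaving out an array moved the Bak1 change by more than 1.5 times: it was -0.85 without the Tc9 array numbered 2, -0.74 without the Tc1 array numbered 1, -0.09 without the Tc1 array numbered 2 and 0.015 without the Tc9 array numbered 1. Its interval, -1.20 to 0.37, was the widest of the 9.

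Of the BH3-only genes, Bcl2l11 had the smallest p-value of the members, at rank 421 of 19505 genes. It measured 722 and 801 in Tc9, against 515 and 517 in Tc1. Both Tc9 arrays stood clear of the Tc1 arrays, whose values were nearly equal. The log2 change was 0.55 ± 0.15 (95% interval 0.20 to 0.89; 0.47 and 0.62 within the numbers), with limma adjusted p = 0.354 and, with the block, 9.06e-09. It lay between 0.47 and 0.62 when any 1 array was left out and between 0.51 and 0.56 under the other settings.

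Bid, which encodes the BH3-only protein that caspase 8 and granzyme B cut to carry a death signal to mitochondria, measured 254 and 232 in Tc9, against 422 and 323 in Tc1. Both Tc9 arrays lay below both Tc1 arrays, and the Tc1 arrays differed more from each other than the Tc9 arrays did. The log2 change of Bid was -0.57 ± 0.20 (95% interval -1.04 to -0.10; -0.70 and -0.45 within the numbers), with limma adjusted p = 0.679 and, with the block, 8.33e-06. It was between -0.76 and -0.39 without any 1 array. The lower of these values came without the Tc1 array numbered 2, and the one nearest 0 without the Tc1 array numbered 1.

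The remaining BH3-only genes were dim and differed less. Bbc3, a target of p53 and FOXO factors, measured 174 and 180 in Tc9, against 201 and 191 in Tc1. Both Tc9 values were lower, by a margin that the fit did not tell from 0 (log2 change -0.14 ± 0.20, limma adjusted p = 1.000, with the block 0.636). As deposited, Bbc3 was 128 and 230 in Tc9 and 144 and 244 in Tc1, a little over the background limits of 123 and 197 on those Tc9 arrays and 131 and 218 on those Tc1 arrays. Pmaip1, whose NOXA protein binds MCL1, measured 97.6 and 103 in Tc9, against 88.8 and 111 in Tc1. The groups overlapped and the sign differed between the numbers (0.12 and -0.09 on the log2 scale; fit 0.01 ± 0.24, limma adjusted p = 1.000). Bad, which encodes a BH3-only protein that growth factor kinases silence, measured 100 and 84.1 in Tc9, against 110 and 97.0 in Tc1 (log2 change -0.15 ± 0.24, limma adjusted p = 1.000), and its groups overlapped. Pmaip1 and Bad were under the background limit on all 4 arrays, too dim for a change to be read, while the other 7 members lay above it on every array.

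Both Tc9 arrays fell on one side of both Tc1 arrays for 4 of the 9 members, against 29.2% of all genes and 37.4% of the 6354 brighter genes, so this count is near the background. By role, the mean log2 change was 0.22 over the 3 survival genes (0.26 and 0.19 within numbers 1 and 2) and -0.06 over the 5 BH3-only genes (-0.08 and -0.04). These means have no test. The survival mean joined Bcl2 with Bcl2l1 and Mcl1, whose groups overlapped and whose sign turned when 1 array was left out. It holds listed members only, so it leaves out the Bcl2a1 survival genes described below and Bcl2l2, which was too dim to read. The Bcl2a1 genes had negative log2 changes that passed only with the block, and among them Bcl2a1c was too dim to read. The BH3-only mean joined Bcl2l11, which was higher in Tc9, with Bid, which was lower, and held Pmaip1 and Bad, which were too dim to read.

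**Figure D2:**
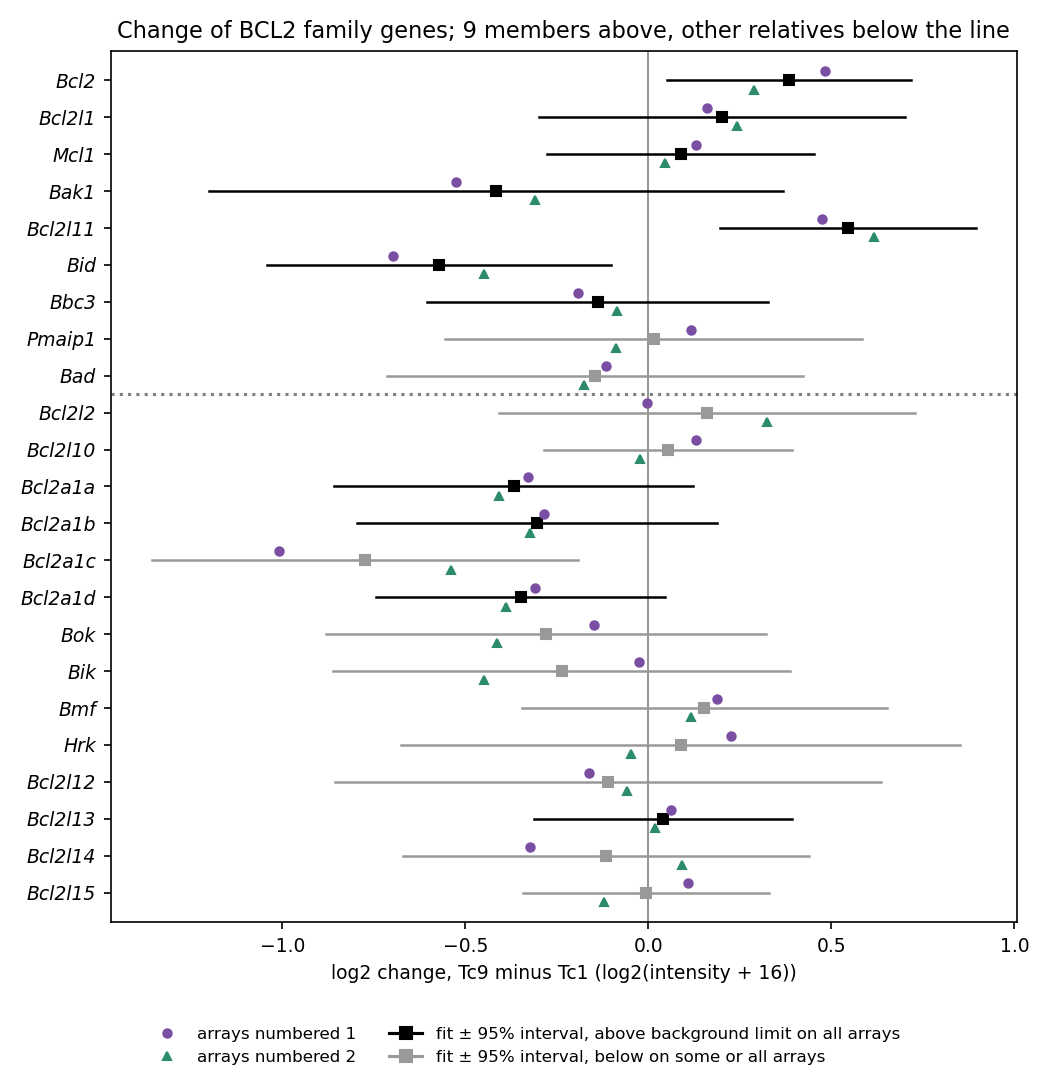
Log2 change, Tc9 minus Tc1 (x axis, log2(intensity + 16)), of the 9 members and, below the dotted line, 14 other BCL2 relatives (y axis), as squares with 95% intervals from limma and as the change within the arrays numbered 1 (circles) and 2 (triangles). Among the members the interval lies clear of 0 for Bcl2, Bcl2l11 and Bid, and grey marks genes that were under the background limit on at least 1 array.

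All 14 other listed relatives were measured, and 0 passed limma without a block. Bcl2a1c had an unadjusted p under 0.05, where 5.34% of all genes and 9.65% of the 6354 brighter genes did. These 2 shares are also the background to the unadjusted counts of the lists that follow. With the block 4 of the 14 passed, against 14.0% of all genes and 29.6% of the 6354 brighter genes, shares that also stand as background to the block counts of the lists that follow. All 4 were lower in Tc9. They were the Bcl2a1 genes, which encode the mouse A1 survival proteins and are near-identical copies, so that their probe sets may share signal, which was not examined. Bcl2a1b measured 881 and 644 in Tc9, against 1077 and 810 in Tc1 (log2 change -0.30 ± 0.21; -0.29 and -0.32 within the numbers; limma adjusted p = 1.000, with the block 0.00126). Bcl2a1a measured 389 and 293 in Tc9, against 493 and 394 in Tc1 (log2 change -0.37), and Bcl2a1d 381 and 335 in Tc9, against 476 and 444 in Tc1 (-0.35). With 1 array left out, the log2 change ranged from -0.56 to -0.17 for Bcl2a1a, -0.53 to -0.083 for Bcl2a1b and -0.44 to -0.26 for Bcl2a1d. The first of each pair came without the Tc9 array numbered 1 and the second without the Tc9 array numbered 2. Bcl2a1b was also at -0.10 without the Tc1 array numbered 1 and -0.51 without the one numbered 2, and Bcl2a1a was at -0.21 without the Tc1 array numbered 1. Bcl2a1c, at 34.8 and 47.6 in Tc9 and 86.1 and 76.4 in Tc1, was under the background limit on all 4 arrays. So were Bcl2l2 (BCL-W, log2 change 0.16), Bcl2l10 (0.05), Bok (-0.28), Bmf (0.15), Hrk (0.09), Bcl2l12 (-0.11), Bcl2l14 (-0.12) and Bcl2l15 (-0.0068), which were too dim for a change to be read. Bik, a BH3-only gene, was at -0.24 and below that limit on 1 Tc9 array. Bcl2l13, an outer mitochondrial membrane protein gene, had a log2 change of 0.04, at 536 and 521 in Tc9 and 513 and 514 in Tc1 (95% interval -0.31 to 0.39). The median over the 14 was -0.11, against -0.0030 for all genes.

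Of 13 measured apoptosome and caspase genes, 0 passed limma without a block, 0 had an unadjusted p under 0.05 and 2 passed with it, both lower in Tc9. Aifm1, a mitochondrial flavoprotein gene, measured 996 and 1063 in Tc9, against 1303 and 1179 in Tc1 (log2 change -0.27; limma adjusted p = 1.000, with the block 0.00203). Cycs, encoding the cytochrome c that BAX and BAK pores release, measured 2653 and 2512 in Tc9, against 3066 and 2884 in Tc1 (-0.20; adjusted p = 1.000, with the block 0.00126). Of 11 mitochondrial membrane genes 0 passed, 1 had an unadjusted p under 0.05 and 2 passed with the block. Bnip3l, a mitophagy receptor with a BH3-like stretch, measured 863 and 951 in Tc9, against 546 and 553 in Tc1, a larger log2 change than that of any member (0.70 ± 0.14; limma adjusted p = 0.153, with the block 1.09e-15). Mfn2, a mitochondrial fusion gene, measured 346 and 339 in Tc9, against 480 and 428 in Tc1 (-0.39; adjusted p = 0.939, with the block 0.00178). The median log2 change was -0.14 over the 13 genes and -0.07 over the 11.

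Of 9 measured genes of the death receptor route, which feeds into BID through caspase 8, 0 passed limma without a block, 3 had an unadjusted p under 0.05 (1 higher, 2 lower), and with the block 1 was higher and 3 lower. Tnfsf10, the death ligand TRAIL, measured 433 and 502 in Tc9, against 287 and 282 in Tc1 (log2 change 0.68 ± 0.17; limma adjusted p = 0.281, with the block 2.72e-09). Fasl, the Fas ligand, measured 47.5 and 54.0 in Tc9, against 114 and 104 in Tc1 (-0.91; adjusted p = 0.324, with the block 2.18e-06), under the background limit on all 4 arrays. The median of the 9 was -0.11.

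Of 12 measured factors acting on the BCL2 family members, 0 passed limma without a block. Of these factors 3 were higher at an unadjusted p under 0.05, and with the block 3 were higher and 3 lower. Foxo1, a FOXO factor, measured 918 and 1101 in Tc9, against 409 and 503 in Tc1 (log2 change 1.12; limma adjusted p = 0.0530, with the block 2.26e-38). Foxo1 passed with a pseudocount of 1 (0.0487), and its adjusted p was up to 1.000 under the other processing settings without a block. Stat5b measured 1087 and 1170 in Tc9, against 629 and 573 in Tc1 (0.89 ± 0.14; limma adjusted p = 0.0569, with the block 7.48e-28), and its partner Stat5a, named after its values were seen, 4022 and 3197 in Tc9, against 2029 and 1696 in Tc1 (0.94 ± 0.16; adjusted p = 0.0642, with the block 5.75e-68). For Stat5a and Stat5b the limma adjusted p was 1.000 with the values as deposited, 0.233 and 0.137 without the intensity trend, and 0.0549 and 0.399 with median centring. Both Tc9 arrays lay above both Tc1 arrays for 5 of the 12 factors, among them Foxo1 and both Stat5 genes, and below them for 2. On one side or the other, 29.2% of all genes and 37.4% of the 6354 brighter genes did so. Another FOXO factor, Foxo3, had a log2 change of 0.17, and the 3 lower with the block were Myc (-0.21), Atf4 (-0.18) and E2f1 (-0.26). A link between these factors and the members was not tested. Among 6 survival cytokine receptor chains 0 passed, 2 had an unadjusted p under 0.05 (1 higher, 1 lower), and with the block 2 were higher and 1 lower. Il15ra, which presents the survival cytokine interleukin 15, measured 167 and 121 in Tc9, against 433 and 355 in Tc1 (-1.36; limma adjusted p = 0.0627, with the block 1.09e-26), with both Tc9 arrays under the background limit. For Il15ra the adjusted p was 1.000 with the values as deposited and 0.123 without the intensity trend. Il4ra, the interleukin 4 receptor chain, measured 2542 and 2356 in Tc9, against 1897 and 1758 in Tc1 (0.42; adjusted p = 0.437, with the block 6.75e-12). The median log2 change was 0.01 over the 12 factors and 0.07 over the 6 chains.

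Of 11 listed p53 targets, chosen because Bbc3 and Pmaip1 are targets of p53 as well, 1 rose and 0 fell. In either direction 0.574% of all genes passed that threshold. An unadjusted p under 0.05 was found for 4 of the 11 (1 higher, 3 lower), and with the block 1 was higher and 3 lower. The riser was Trp53inp1, a stress gene that p53 induces, at 674 and 528 in Tc9, against 204 and 169 in Tc1. Its log2 change was 1.60 ± 0.20 (1.65 and 1.55 within the numbers; limma adjusted p = 0.0209). The call was lost with the values as deposited (1.000) and without the intensity trend (0.0685). It held under the other processing settings (2.87e-47 with the block to 0.0334 with median centring). For Trp53inp1, 1 Tc1 array lay under the background limit. Cdkn1a, the cell cycle inhibitor p21, measured 1060 and 1019 in Tc9, against 1742 and 1921 in Tc1 (-0.81; adjusted p = 0.0576, with the block 1.50e-32). For Cdkn1a the adjusted p was 1.000 as deposited, 0.264 with median centring and 0.174 without the intensity trend. The list thus held values of both signs, with a median of -0.17.

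**Figure D3:**
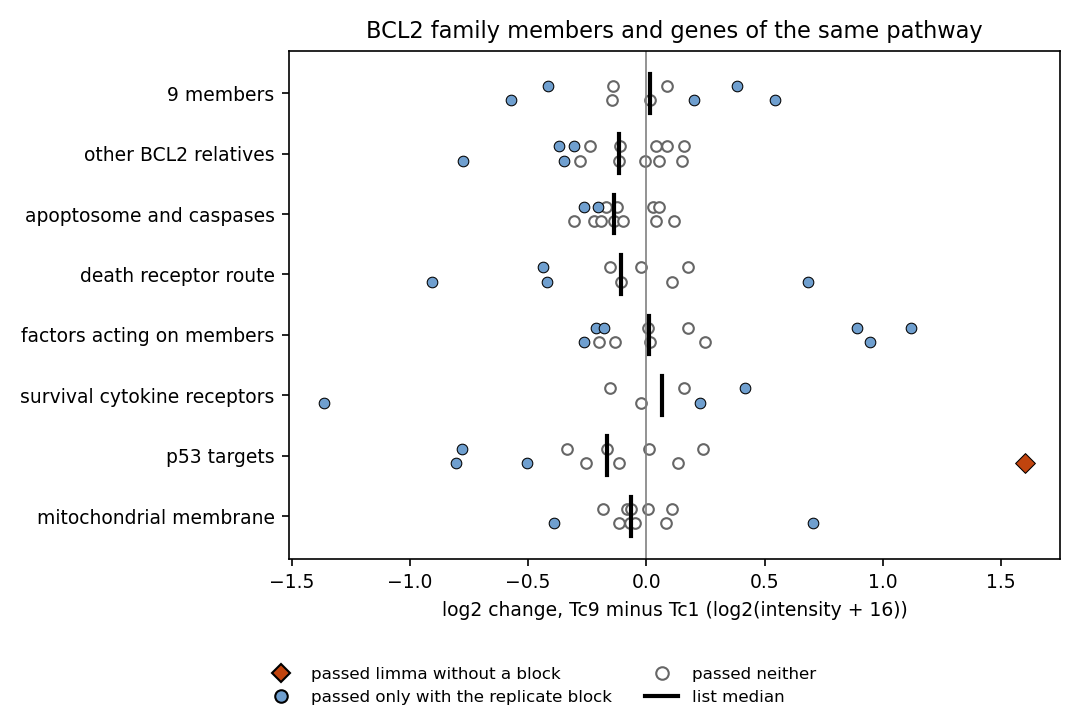
Log2 change, Tc9 minus Tc1 (x axis, log2(intensity + 16)), of each measured gene in 8 lists (rows), with the list median as a vertical bar, a diamond for a gene past limma without a block, filled circles for genes past it only with the replicate block, and open circles for the rest. The members span -0.57 to 0.55, and the 1 diamond is Trp53inp1 among the p53 targets at 1.60.

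The genes most like the leading members were those whose log2 values, centred on each gene's mean, lay at the smallest Euclidean distance over the 4 arrays, among 7154 genes with a mean deposited intensity above the mean background limit. For Bcl2l11 these were Spsb3 (distance 0.03), Gna12 (0.05) and Golph3l (0.07). For Bid they were Cptp (0.07), Psmc3ip (0.08) and Nrros (0.08), and for Bcl2 they were Cyb561a3 (0.04), Il16 (0.04) and Med13l (0.05). With 4 arrays many genes share a pattern, and these names are a description.

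**Figure D4:**
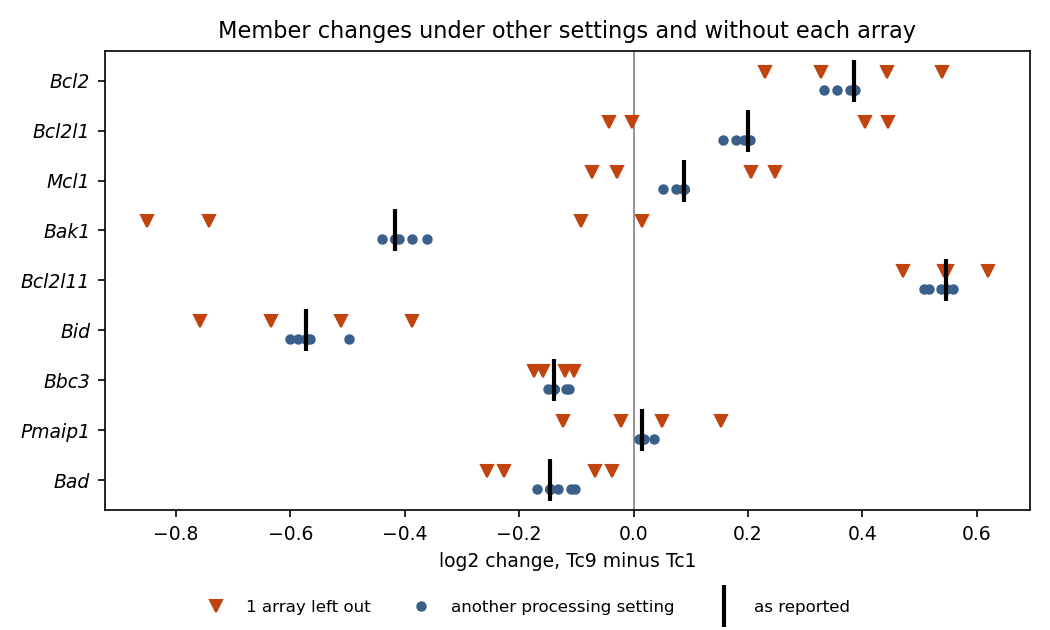
Log2 change, Tc9 minus Tc1 (x axis), of each member (rows) as reported (vertical bar), under 9 other processing settings (circles) and with each array left out (triangles). Bcl2, Bcl2l11, Bid, Bbc3 and Bad keep their sign under each of these, while leaving out 1 array turns the sign of Bcl2l1, Mcl1, Bak1 and Pmaip1. Of the processing settings, only the values as deposited, median centring and the pseudocounts could move a log2 change.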

How the data were processed

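The deposited table holds 1 intensity per array for 28846 probe sets. Their scale was taken as linear because all values are positive and skewed, and background correction and summarization are not stated in these sources. After 6640 control probe sets were left out, 19572 of 22206 had a single gene symbol in the platform annotation, 0 had several and 2634 are unnamed here. For the 55 genes with several, the highest-mean probe set was kept, leaving 19505 genes. Named probe sets were quantile normalized, 16 was added and log2 was taken. Tc9 minus Tc1 was tested with limma 3.58.1 in R 4.3.3 (lmFit, eBayes with an intensity trend, 2 residual and 5.11 prior degrees of freedom), 2-sided, with Benjamini-Hochberg adjustment over all genes at 0.05; the code was tested on simulated data. The 2 arrays per group limit the precision. Deviations from the group means correlated across genes with r = 0.729 between same-numbered arrays, but with only 2 numbers, and labels that do not say what a number stands for, the pairing rests on the medians and digits of the deposited values, so the block is an alternative. Number and processing coincide and cannot be told apart. The members and gene lists were chosen with earlier results of these data known, so no list has a test. Named are all members and other relatives. Of each other list, the genes past the threshold are named and, where under 2 passed, the 2 with the smallest p. The listed factors Stat5a, Foxo3, Myc, Atf4 and E2f1 are named outside this rule. Alternatives were the values as deposited, median centring, pseudocounts of 1 and 64, a filter at the 25th percentile, no trend, a robust variance model, the replicate block, averaged probe sets, and leaving out each array.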

Additional observations from a re-analysis of the deposited data

How the results depend on the processing

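The count of 112 genes past the threshold became 16 with the values as deposited, 65 without the intensity trend and 2724 with the replicate block, and lay between 185 and 275 without 1 array, where the lone array of a group is assumed to vary like the other group. Under the remaining settings it lay between 77 and 135. Of 117 member values under the alternatives, 105 kept their direction and side of the threshold. With the replicate block 5 crossed it (Bcl2, Bcl2l1, Bak1, Bcl2l11 and Bid), and 7 turned sign, each with 1 array left out. The filter, the trend, the robust model, the block and averaged probe sets could change a member's p-value but not its log2 change. Leaving out 1 array leaves the groups with unlike numbers, so such a value also holds part of the gap between numbers. Within both numbers, Bcl2l1, Mcl1 and Bak1 kept the same sign, while Pmaip1 was at 0.12 and -0.09. Other causes of the turned signs were not tested. Without 1 array the log2 change ranged from -0.043 to 0.44 for Bcl2l1, -0.072 to 0.25 for Mcl1, -0.85 to 0.015 for Bak1 and -0.12 to 0.15 for Pmaip1. Without the block, 0 members passed under any alternative, and the lowest adjusted p was 0.140, for Bak1 without the Tc9 array numbered 2. Signal over background limits Pmaip1 and Bad.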
